A study of Mus musculus with 12 samples.

Results

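Bile acids that carry a hydroxyl group at carbon 12 were compared with one that lacks it in mouse small-intestinal organoids, epithelial cultures that grow from intestinal stem cells. The 12-hydroxylated acids were cholic acid (CA, hydroxyls at carbons 3, 7 and 12) and deoxycholic acid (DCA, hydroxyls at 3 and 12). The acid without it was chenodeoxycholic acid (CDCA, hydroxyls at 3 and 7). The comparison used 9 of the 12 libraries of the series, chosen by their treatment label: 3 with CA and 3 with DCA together against 3 with CDCA. The other 3 libraries, treated with the solvent dimethyl sulfoxide (DMSO), gave the reference level. Of 32587 gene rows, 11952 reached 1 TPM (transcript abundance scaled to a fixed library total) in at least 3 libraries and were tested. The libraries were grouped by label, with no use of measured values. All 12 libraries came from wild-type organoids that the labels place in the duodenum, kept in a commercial growth medium and cultured for 2 days before treatment. The labels give no strain, age or number of animals. The labels put each acid at 50 mmol/L, a concentration so high for a bile acid that its unit is in doubt, and state the exposure once as 2 days and once as 96 hours. Dose and time are the same in the labels of all 3 acids, so the acids were compared as matched. Whether the 3 libraries of a treatment are separate cultures or animals is not in the labels. The p-values therefore reflect spread among these libraries alone, and that spread may be technical.

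Bile acids are made from cholesterol in the liver. CA and CDCA are the primary acids, and a sterol 12-hydroxylase decides how much of the pool becomes CA. DCA is a secondary acid that gut bacteria make from CA by removing its 7-hydroxyl. In the intestine bile acids disperse dietary fat and act on receptors, among them the farnesoid X receptor (FXR), which drives genes of bile acid binding and export in enterocytes. Of the 3 possible pairs, CA and CDCA differ by the 12-hydroxyl alone. DCA and CDCA differ at both carbon 7 and carbon 12, and DCA and CA differ by the 7-hydroxyl alone. A gene was taken to follow the 12-hydroxyl where CA and DCA each differed from CDCA in the same direction.

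Differences are given in mean log2(TPM + 1), a scale on which changes of low genes are understated, with 95% confidence intervals (CI). The 12-hydroxyl difference is the mean of the CA and DCA means minus the CDCA mean, tested with limma and adjusted over all genes by the Benjamini-Hochberg method. Agreement of the acids was tested in the same limma fit by taking, for genes in which both acids lay on the same side of CDCA, the larger of the 2 p-values against CDCA. The 3 pairs of acids were adjusted together. The threshold was an adjusted p of 0.05. Earlier results of these data were known when the genes and lists were chosen, so list counts set beside a background are descriptions only.

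Against the tissue label, the epithelial genes Epcam and Vil1 stood at 694 to 828 and 190.0 to 358 TPM over the 12 libraries. Gata4 and Pdx1, which mark the upper small intestine, stood at 76.8 to 105 and 8.16 to 11.2 TPM. Totals of the rows ranged from 889156 to 936841 TPM per library, and 11464 to 11711 rows reached 1 TPM. Sequencing depth is unknown, so no counting interval can be given. Summed TPM of 11 mesenchymal markers was 3.90 to 5.75 in the 6 CA and DCA libraries and 4.51 to 5.56 in the CDCA libraries. The 11 immune markers summed to 8.68 to 12.6 and 9.45 to 11.4 TPM, and the 11 endothelial, glial and neuronal markers to 4.61 to 6.20 and 4.94 to 6.42 TPM. At 0 in every library were 2, 1 and 1 of these markers. On a line from the CDCA mean (0) to the mean of CA and DCA (1), with each library left out of its own group's mean, CDCA replicates 1 and 2 lay at -0.115 and -0.0224. CDCA replicate 3 lay at 0.705 and the 3 CA libraries at 0.316 to 0.619. Leaving an acid library out redraws the line, so positions of different libraries compare only roughly. The DCA libraries lay at 1.21 to 1.45, and DMSO replicate 1 at 0.354.

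No gene passed the test that CA and DCA agree against CDCA, 0 of 11952 genes (0%), with the smallest limma adjusted p at 0.608. At an unadjusted p under 0.05, 584 genes (4.89%) did, of which 455 (3.81%) were higher in both acids than in CDCA and 129 (1.08%) lower. This p is the larger of 2, and both acids must lie on the same side of CDCA. Without any difference it would thus fall under 0.05 in fewer genes than an ordinary p, and its adjusted value is strict for the same reason. The 12-hydroxyl difference itself was past the threshold in 1354 genes (11.3%), 827 (6.92%) higher and 527 (4.41%) lower with CA and DCA. With the 13 mitochondrial and 2 ribosomal RNA rows removed the split turned, 825 higher and 1132 lower. In 1329 of the 1354 genes the DCA difference from CDCA was the larger. Taken gene by gene, the CA difference as a share of the DCA difference had a median of 34.8%. In 14 of the genes CA and DCA lay on opposite sides of CDCA. In 745 of the 1354 genes DCA and CA also differed from each other, and in 314 CA and DCA lay nearer to each other than both did to CDCA. Of the 3 pairs compared, CA and CDCA differed in 148 genes (1.24%), 117 (0.979%) higher and 31 (0.259%) lower with CA. DCA and CDCA differed in 2673 (22.4%), 1285 (10.8%) higher and 1388 (11.6%) lower. DCA and CA differed in 1643 (13.7%), 637 (5.33%) higher and 1006 (8.42%) lower. By this adjustment over the 3 pairs, 85 of the 148 genes of CA against CDCA also differed between DCA and CDCA in the same direction. With each pair adjusted over its own genes, no gene passed both. Whether any gene met the definition therefore depended on the adjustment. Adjusted over its own genes alone, CA against CDCA gave 4 genes (0.0335%; Gcg, Cyp24a1, Lgals2 and Zg16), and 861 genes had an unadjusted p under 0.05. Every other CA against CDCA call given below, lists included, rests on the adjustment over the 3 pairs together. With ribosomal and mitochondrial rows removed the split of CA against CDCA was 146 higher and 82 lower, and that of DCA against CDCA 1214 and 2173. Median-ratio scaling gave 138 and 89 for CA against CDCA and 1159 and 1158 for DCA against CA. When the 6 CA and DCA libraries were fitted as a single group, whose spread then includes the gap between both acids, 2 genes differed from CDCA, Reg1 (2.48) and Prelp (-1.13), both with a limma adjusted p = 0.0413. Against the solvent, 69 genes (0.577%) differed with CA, 71 (0.594%) with CDCA and 4545 (38%) with DCA, 3 comparisons that share the DMSO libraries.

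**Figure D1:**
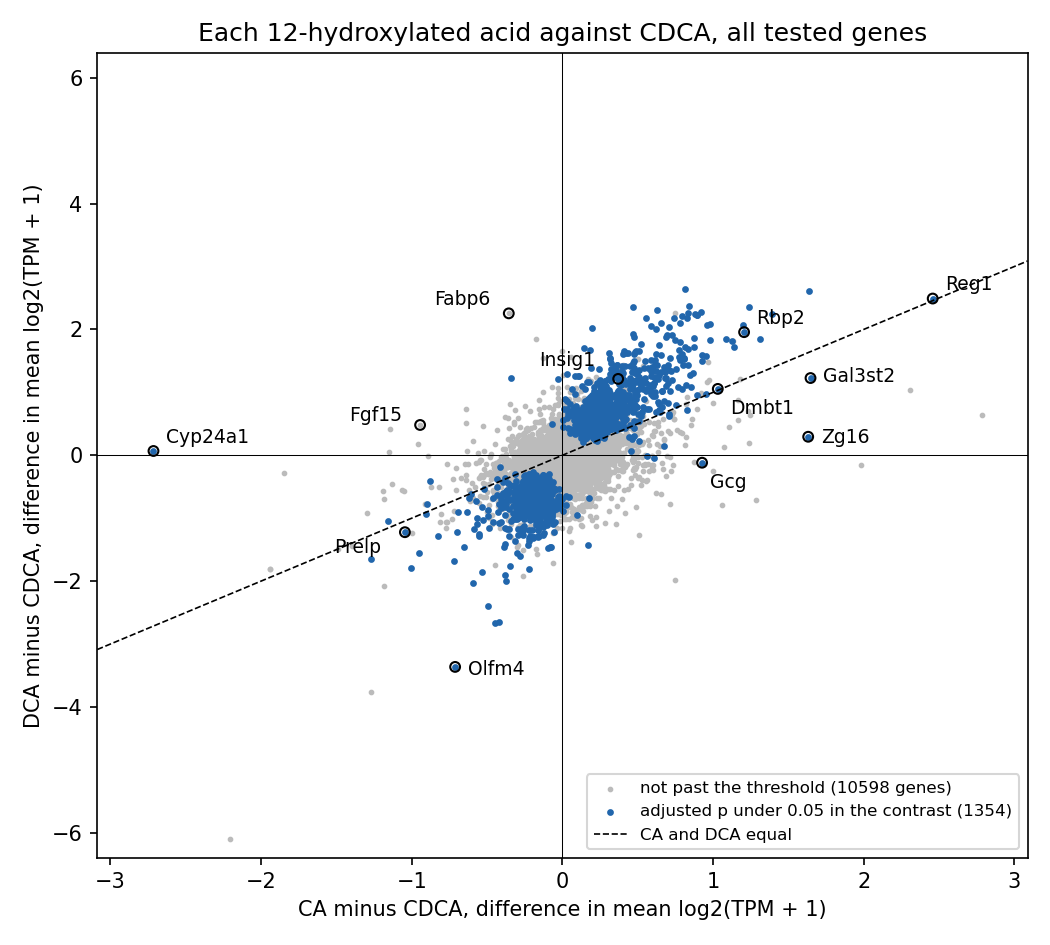
Difference of CA from CDCA (x axis) and of DCA from CDCA (y axis) in mean log2(TPM + 1) for the 11952 tested genes, with the 1354 genes past the threshold of the 12-hydroxyl difference in blue. The dashed line marks equal differences. Both axes share the CDCA libraries, so a tilt along the line is partly built in. Blue genes lie mostly on the steeper side of the line, where DCA differs more than CA.

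Of the 20 genes with the smallest p for agreement, 10 in each direction, the largest difference was that of Reg1, which encodes a secreted lectin of the regenerating family. Its level was 9.86, 13.1 and 32.5 TPM in CDCA replicates 1, 2 and 3, 123, 66.9 and 100.1 TPM in CA and 94.2, 114 and 81.8 TPM in DCA. The 6 CA and DCA libraries all lay above the 3 CDCA libraries. The DMSO libraries, at 178, 73.6 and 96.4 TPM, lay with CA and DCA, so CDCA was the acid that stood apart from solvent. The 12-hydroxyl difference was 2.48 (CI 1.65 to 3.30, limma adjusted p = 0.00965). CA and DCA differed from CDCA by 2.46 and 2.49 (limma adjusted p = 0.00619 and 0.00590 over the 3 pairs), and from each other by 0.03 with an interval of -0.92 to 0.99. CDCA differed from DMSO by -2.66 (limma adjusted p = 0.0244). As a test of agreement the limma p was 0.000177, or 0.706 adjusted over all genes. The 12-hydroxyl call was lost without CDCA replicate 1 (limma adjusted p = 0.0655) or CDCA replicate 2 (0.0811), and without CDCA replicate 3 Reg1 passed the test of agreement (limma adjusted p = 0.0475).

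Prelp, which encodes a small leucine-rich proteoglycan of the extracellular matrix, showed the mirror image and had the smallest p for agreement. It stood at 3.77, 3.12 and 5.05 TPM in CDCA, 1.18, 1.34 and 1.67 in CA, 1.22, 0.929 and 1.19 in DCA and 0.657, 0.997 and 1.35 in DMSO. Every CDCA library lay above every other library, at levels of a few TPM. The 12-hydroxyl difference was -1.13 (CI -1.46 to -0.81, limma adjusted p = 0.00451), CDCA was above DMSO by 1.31 (limma adjusted p = 0.00407), and CA and DCA differed from DMSO by 0.27 and 0.09 (limma adjusted p = 0.510 and 0.714). DCA and CA differed by -0.18 (CI -0.56 to 0.20). The p for agreement was 5.09e-05, or 0.608 adjusted in limma. Its 12-hydroxyl call was kept without each of the 12 libraries in turn.

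Steap1, a membrane protein of a metalloreductase family, and Esam, an adhesion molecule of cell junctions, also stood apart in CDCA alone. Steap1 was at 14.03, 12.4 and 10.3 TPM in CDCA against 6.26 to 8.34 TPM over the 6 CA and DCA libraries and 6.38 to 7.37 TPM in DMSO. Esam was at 10.2, 10.4 and 9.87 TPM in CDCA, 5.10 to 7.98 TPM in CA and DCA and 5.20 to 7.58 TPM in DMSO. In neither gene did a CDCA library overlap any other library. The 12-hydroxyl differences were -0.65 and -0.61 (limma adjusted p = 0.00969 and 0.0208), and CDCA differed from DMSO by 0.74 and 0.67 (limma adjusted p = 0.0200 and 0.0936). Both calls were lost without CDCA replicate 1 (limma adjusted p = 0.0689 and 0.107) or CDCA replicate 2 (0.0811 and 0.123), and Esam was also lost without DCA replicate 2 (0.0514). Car12, a carbonic anhydrase, lay at 5.37, 5.45 and 7.25 TPM in CDCA, 3.78 to 4.49 TPM in CA and DCA and 3.65 to 3.91 TPM in DMSO, again with CDCA highest. Its difference was -0.41 (limma adjusted p = 0.0284), and it was lost without any 1 CDCA library (limma adjusted p = 0.0636 to 0.113), CA replicate 1 or 3 or DCA replicate 1 or 2.

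**Figure D2:**
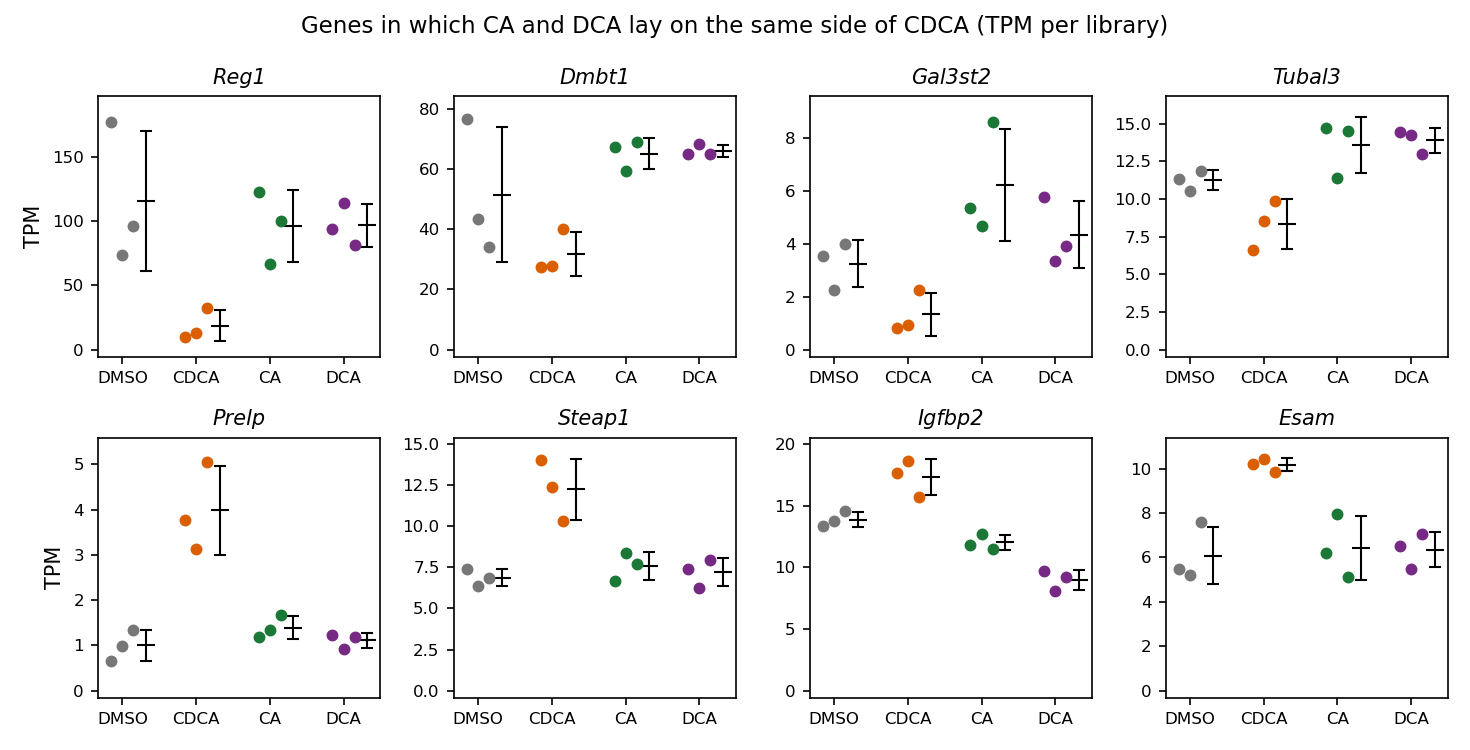
Abundance in TPM (y axis, linear, from 0) of 8 genes in which CA and DCA lay on the same side of CDCA, by treatment (x axis). Points are libraries, horizontal bars the group means and vertical bars 1 SD (n = 3). In Reg1, Dmbt1, Gal3st2 and Tubal3 the 6 CA and DCA libraries lie above the 3 CDCA libraries, and in Prelp, Steap1, Igfbp2 and Esam below them.

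In other genes of this kind the solvent lay between the groups. Dmbt1, a mucosal scavenger receptor that binds bacteria, was at 27.5, 27.8 and 40.2 TPM in CDCA, 67.3, 59.4 and 69.1 in CA and 64.98, 68.6 and 65.1 in DCA. CA and DCA were almost level and did not overlap CDCA, while DMSO spread over 76.9, 43.5 and 34.2 TPM and overlapped both. The difference was 1.04 (CI 0.61 to 1.48, limma adjusted p = 0.0127), and DCA and CA differed by 0.02 (CI -0.48 to 0.53). Gal3st2, a sulfotransferase that acts on galactose residues of glycans and has near-identical copies in the mouse, was at 0.805, 0.922 and 2.26 TPM in CDCA against 5.38, 4.66 and 8.64 in CA, 5.77, 3.36 and 3.93 in DCA and 3.55, 2.24 and 3.98 in DMSO. The CDCA libraries were lowest except that CDCA replicate 3 passed DMSO replicate 2, and the copies make the value uncertain. The difference was 1.44 (limma adjusted p = 0.00937). Tubal3, an alpha-tubulin-like gene, was at 6.59, 8.55 and 9.85 TPM in CDCA, 11.4 to 14.7 TPM in CA and DCA and 10.6 to 11.8 TPM in DMSO (0.67, limma adjusted p = 0.0108). Ccdc134 was at 5.68, 5.69 and 5.30 TPM, 7.72 to 9.27 TPM and 5.75 to 6.71 TPM in the same order (0.51, limma adjusted p = 0.00937). In both, CA and DCA lay above every CDCA library. All 4 calls were lost without CDCA replicate 1 or 2, with limma adjusted p from 0.0616 (Ccdc134 without CDCA replicate 1) to 0.0991 (Dmbt1 without CDCA replicate 2).

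Igfbp2, a secreted binding protein of insulin-like growth factors, was graded rather than level in both acids. It was at 17.6, 18.6 and 15.7 TPM in CDCA, 11.8, 12.7 and 11.5 in CA, 9.68, 8.07 and 9.23 in DCA and 13.3, 13.7 and 14.5 in DMSO. The 4 groups did not overlap, with CDCA above the solvent and both 12-hydroxylated acids below it. The 12-hydroxyl difference was -0.68 (CI -0.87 to -0.50, limma adjusted p = 0.00291), and DCA and CA differed from each other by -0.38 (limma adjusted p = 0.0226). Mreg, melanoregulin, was at 5.34, 4.51 and 3.35 TPM in CDCA, 2.31, 2.60 and 2.75 in CA and 1.21, 1.44 and 1.45 in DCA, a descending order without overlap, with DMSO at 3.41, 4.30 and 4.88 TPM beside CDCA (-0.88, limma adjusted p = 0.00859, and 0.0616 and 0.0685 without CDCA replicates 1 and 2). The mitochondrially encoded ND5, a subunit of respiratory complex I, was at 5413, 6156 and 5759 TPM in CDCA against 3959 to 4630.4 TPM in CA and DCA (-0.41, limma adjusted p = 0.0119), with DMSO at 4501 to 5889.7 TPM overlapping both. Without CDCA replicates 1 and 2 its limma adjusted p was 0.0655 and 0.0991. Mitochondrially encoded RNA as a whole made up 12.9 ± 1.31% of TPM in the 6 CA and DCA libraries and 15.9 ± 2.02% in the 3 CDCA libraries (SD), a difference of -3.02 percentage points (exact two-sided permutation p = 0.0357). The DMSO libraries, at 17.0, 20.1 and 14.6%, overlapped the CDCA libraries at 14.2, 18.1 and 15.5%. The CA libraries, at 13.6 to 14.4%, and the DCA libraries, at 11.2 to 12.7%, lay below every DMSO library, and CA overlapped CDCA. For CA, DCA and CDCA in pairs the exact permutation p was 0.2 (CA and CDCA), 0.1 (DCA and CDCA) and 0.1 (DCA and CA), where 0.1 is the smallest that 3 against 3 libraries allow. Without CDCA replicate 2 the difference was -1.93 (exact permutation p = 0.107), and without CDCA replicate 3 it was -3.24 (exact permutation p = 0.0714). Leaving out CA replicate 2, CA replicate 3 or DCA replicate 3 each gave an exact permutation p of 0.0536. A smaller mitochondrial share raises the TPM of all other genes by construction. With mitochondrial and ribosomal rows removed and TPM rescaled, 1957 genes were called in place of 1354.

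Gamt, which makes creatine, and Mgst3, a microsomal glutathione transferase, were ordered CDCA, CA, DCA. Gamt was at 8.44, 11.02 and 9.54 TPM in CDCA, 15.9, 13.4 and 13.2 in CA and 26.7, 24.6 and 21.02 in DCA, and the DMSO libraries, at 9.53 to 10.5 TPM, lay with CDCA. Its difference was 0.87 (CI 0.65 to 1.10, limma adjusted p = 0.00291), and DCA exceeded CA by 0.73 (limma adjusted p = 0.00336). Mgst3 was at 124, 121 and 135 TPM, 184, 156 and 158 TPM and 199, 202 and 188 TPM in the same order (0.51, limma adjusted p = 0.00857, 0.0561 and 0.0685 without CDCA replicates 1 and 2). Dao, which oxidises D-amino acids, was at 1.71, 2.83 and 3.34 TPM in CDCA, 6.60, 4.10 and 5.85 in CA and 7.20, 7.02 and 5.54 in DCA (0.97, limma adjusted p = 0.0108, 0.0702 and 0.0751 without CDCA replicates 1 and 2). In all 3 genes the CDCA libraries lay below every CA and DCA library, and in Dao CA and DCA overlapped.

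Seen over all 584 genes with an unadjusted p for agreement under 0.05, the solvent level lay with CDCA in 357, between in 173 and with CA and DCA in 54, where "with" means within the nearer 25% of the distance. Of the 455 higher genes 310 had the solvent with CDCA, and of the 129 lower genes 47 did. The pattern of Reg1 and Prelp, in which CDCA alone left the solvent level, was that of 23 higher and 31 lower genes. These counts are descriptions, since no gene of the 584 passed the test of agreement after its adjustment over all genes. The same classes in the 1354 genes of the 12-hydroxyl difference were 1123 with CDCA (697 higher and 426 lower), 189 between and 42 with CA and DCA.

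Among the largest 12-hydroxyl differences without overlap of the 6 and 3 libraries were genes of absorptive cells. Over all genes, 427 (3.57%) had the 6 CA and DCA libraries above the 3 CDCA libraries and 316 (2.64%) below them, 743 in all (6.22%). Dnase1, a secreted nuclease, was at 1.70, 2.05 and 5.17 TPM in CDCA, 10.7, 5.18 and 8.31 in CA and 22.1, 19.2 and 13.6 in DCA (1.8, limma adjusted p = 0.0116). Rbp2, which carries retinol in enterocytes, was at 34.4, 42.3 and 69.1, 145, 83.4 and 106 and 196, 206 and 153 TPM in the same order (1.58, limma adjusted p = 0.0114). Alpi, intestinal alkaline phosphatase, was at 28.5, 25.8 and 52.2, 103, 54.2 and 68.7 and 126, 143 and 108 TPM (1.47, limma adjusted p = 0.0108). In all 3 genes the CA libraries lay between CDCA and DCA, and CDCA replicate 3 was the CDCA library nearest to them. Creb3l3, a membrane-bound transcription factor of lipid metabolism, was at 9.29, 9.01 and 22.1 TPM in CDCA, 43.7, 23.1 and 33.1 in CA and 53.8, 54.9 and 35.5 in DCA (1.58, limma adjusted p = 0.0119). Its CDCA libraries ranged over 9.01 to 22.1 TPM, with CDCA replicate 3 just under CA replicate 2. Cyp2d22, a cytochrome P450 with close relatives, was at 2.92, 3.21 and 8.14, 10.03, 8.19 and 9.17 and 25.1, 32.4 and 18.8 TPM (1.60, limma adjusted p = 0.00859). Without CDCA replicate 1 these 5 limma adjusted p-values were 0.0616 (Cyp2d22) to 0.0814 (Creb3l3), without CDCA replicate 2 they were 0.0685 to 0.0966, and without CDCA replicate 3 Creb3l3 and Cyp2d22 were among 8 genes (0.0671%) that passed the test of agreement. Of the genes that were lower, Kif15, a mitotic kinesin, was at 29.9, 25.6 and 17.5 TPM in CDCA, 11.7, 16.8 and 14.9 in CA, 6.81, 13.01 and 10.1 in DCA and 22.7, 20.3 and 26.1 in DMSO (-0.96, limma adjusted p = 0.0152). Lfng, a glycosyltransferase that modifies Notch receptors, was at 7.01, 6.33 and 4.76, 3.48, 4.54 and 3.32, 1.77, 1.61 and 2.26 and 4.09, 7.45 and 8.93 TPM in the same order (-0.92, limma adjusted p = 0.0168). In both, CDCA replicate 3 was the lowest CDCA library and the solvent overlapped CDCA. Kif15 was lost without CDCA replicates 1 and 2 (limma adjusted p = 0.106 and 0.108), and Lfng likewise (0.110 and 0.113).

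Enterocyte markers were higher with CA and DCA as a pool, with the median of CA between CDCA and DCA. Of 25 enterocyte markers 24 were higher with CA and DCA, against 6.92% of all genes, and 0 lower. Their median was 1.07 for the 12-hydroxyl difference, 0.70 for CA and 1.44 for DCA against CDCA, where the medians of all genes were -0.02, 0.00 and -0.05. In CA against CDCA 3 of the 25 passed, all higher (background 0.979%), and 15 had an unadjusted p for agreement under 0.05 (background 3.81%). Fabp1, a fatty acid binding protein, was at 961, 791 and 1156 TPM in CDCA, 2084, 1234 and 1564 in CA and 3969, 4129 and 2906 in DCA (1.32, limma adjusted p = 0.0127). Ace, a brush-border peptidase, was at 2.47, 3.22 and 5.99, 9.41, 5.01 and 6.69 and 20.99, 23.4 and 16.9 TPM (1.46, limma adjusted p = 0.00876). All CA libraries lay above CDCA in Fabp1, while in Ace CDCA replicate 3 passed CA replicate 2, and DCA was highest in both. In bulk RNA, more cells of a type and more RNA per cell cannot be told apart.

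Genes of fat and drug handling were higher in the pool as well, with the larger difference in DCA. Of 20 fat absorption and chylomicron genes 18 were higher and 1 lower, against 6.92% and 4.41% of all genes (median 0.69, with 0.40 for CA and 1.02 for DCA against CDCA), and of 20 fatty acid oxidation and ketogenesis genes 17 were higher (background 6.92%; medians 0.46, 0.22 and 0.65). Dgat1, which completes triglyceride synthesis, was at 119.9, 113 and 165 TPM in CDCA, 195, 151 and 161 in CA and 262, 257 and 231 in DCA (0.64, limma adjusted p = 0.0113). CA overlapped CDCA through CDCA replicate 3, and DCA lay above both. Of 31 xenobiotic metabolism genes 24 were higher, against 6.92% of all genes (median 0.88, with 0.43 for CA and 1.16 for DCA). In CA against CDCA 1 fat absorption, 1 fatty acid oxidation and 2 xenobiotic genes were higher (background 0.979%). In DCA against CDCA these 3 counts were 18, 18 and 26 (background 10.8%). The glutathione transferase Gstm1, which has close paralogs, was at 487, 437 and 484 TPM in CDCA, 730.2, 571 and 629 in CA, 1309, 1334 and 1145 in DCA and 445, 333 and 365 in DMSO (0.94, CI 0.73 to 1.15, limma adjusted p = 0.00127). Gsta1, another glutathione transferase, was at 287, 276 and 418, 689.8, 494 and 572 and 801, 889.6 and 671 TPM (1.07, limma adjusted p = 0.00965). CDCA did not overlap CA or DCA in either gene, and DCA exceeded CA by 0.98 in Gstm1 (limma adjusted p = 0.000869) and by 0.43 in Gsta1 (0.198).

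The counts of these lists rested on CDCA replicates 1 and 2, without either of which Fabp1, Ace, Dgat1 and Gsta1 also lost their calls. Without CDCA replicate 1, where 30 genes were called in all (0.252%; 0.218% higher and 0.0336% lower), 0 enterocyte, 0 fat absorption, 0 fatty acid oxidation and 2 xenobiotic genes were called higher. Without CDCA replicate 2, where 16 were called (0.134%; 0.101% higher and 0.0336% lower), the counts were 0, 0, 0 and 2. Without CDCA replicate 3, where 2495 were called (20.9%; 10.1% higher), they were 24, 18, 17 and 27. Leaving out DCA replicate 2 left 6, 5, 10 and 5, DCA replicate 1 left 8, 6, 10 and 6, CA replicate 1 left 12, 10, 10 and 8, and CA replicate 3 left 11, 10, 11 and 9. Without a filter on low values the counts were 10, 9, 10 and 7.

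**Figure D3:**
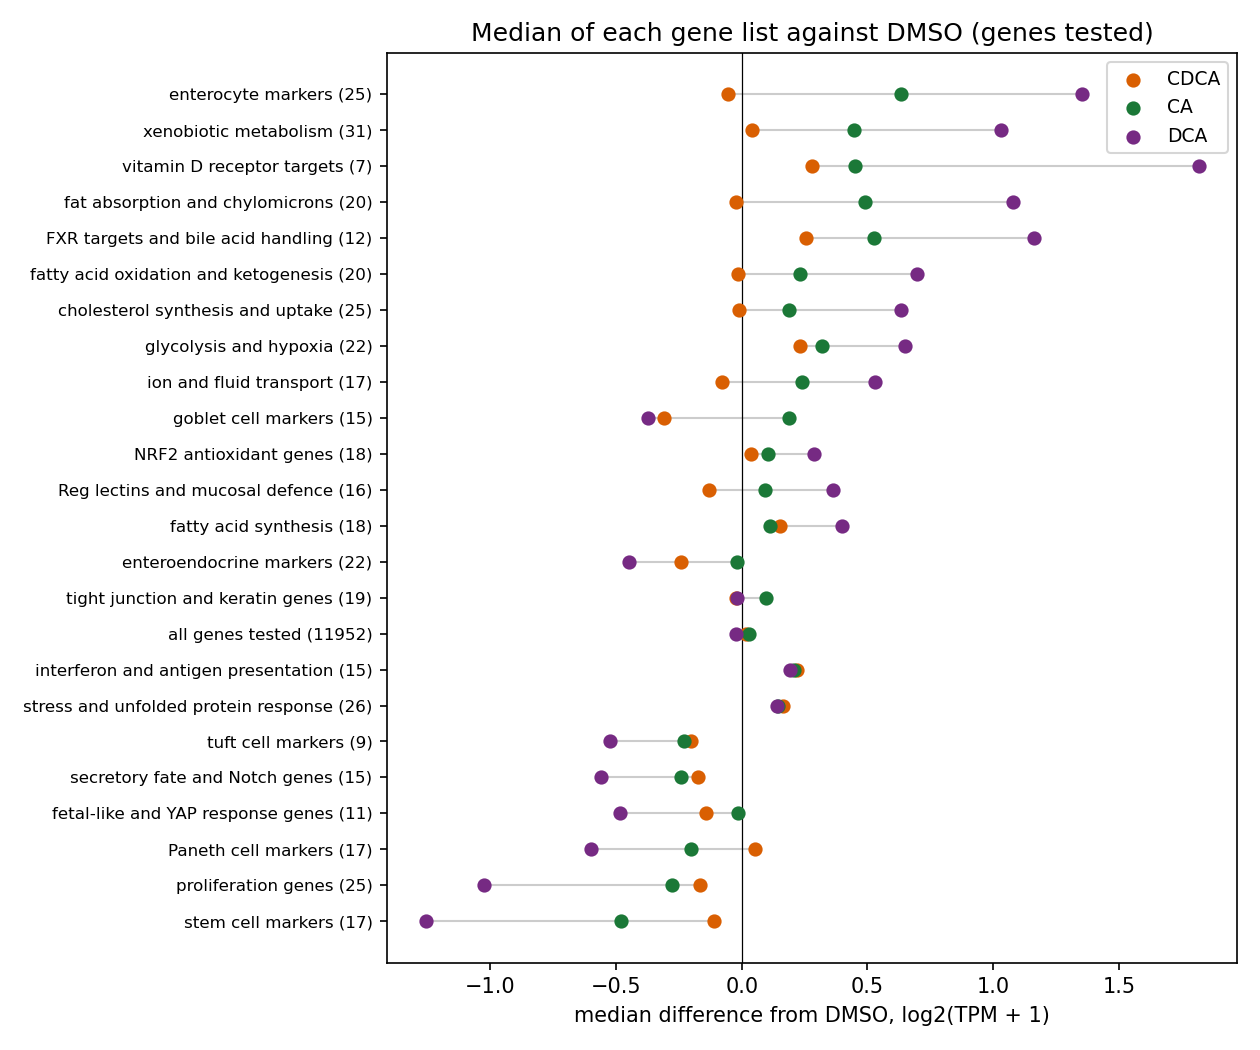
Median difference from DMSO in mean log2(TPM + 1) (x axis) of the tested members of each gene list (y axis, number tested in parentheses) for CDCA, CA and DCA. The 3 acids share the DMSO libraries, so the points of a row are not independent. For enterocyte markers the CA point lies between CDCA near 0 and DCA, while for goblet cell markers CDCA and DCA lie together below CA.

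Genes of cholesterol synthesis and uptake were higher with CA and DCA. The SREBP transcription factors drive the synthesis genes when cell sterols are low, and Insig1 encodes a protein that holds SREBP back. The list also holds the sterol exporters Abca1, Abcg5 and Abcg8, which the LXR receptors drive when sterols are high. Of 25 cholesterol synthesis and uptake genes 18 were higher with CA and DCA and 0 lower, against 6.92% and 4.41% of all genes. Of the 25, 11 had an unadjusted p for agreement under 0.05 (background 3.81%), and 10 were without overlap (background 3.57%). Of the exporters, Abcg5 and Abcg8 were among the 18 (0.49 and 0.51, limma adjusted p = 0.0382 and 0.0263) and Abca1 was not (0.08, 0.695). In CA against CDCA 3 of the 25 passed, all higher (background 0.979%), and in DCA against CDCA 20, all higher (background 10.8%). The median was 0.39, with 0.23 for CA and 0.62 for DCA against CDCA. Insig1 was at 127, 114 and 126 TPM in CDCA, 165, 151 and 158 in CA, 297, 299 and 259 in DCA and 122, 100.3 and 109 in DMSO. CDCA lay at or just above the solvent, CA above both without overlap, and DCA above CA. The 12-hydroxyl difference was 0.79 (CI 0.63 to 0.96, limma adjusted p = 0.00109), with 0.37 for CA against CDCA, 1.21 for DCA against CDCA and 0.84 for DCA against CA (limma adjusted p = 0.0166, 4.64e-05 and 0.000514). Msmo1, a demethylase of sterol synthesis, was at 88.3, 78.3 and 81.5, 107, 106 and 113 and 161, 161 and 149 TPM in CDCA, CA and DCA (0.66, limma adjusted p = 0.00291, and 0.771 for agreement). Hmgcs1, the synthase that feeds the pathway, was at 133, 124 and 133, 157, 148 and 168 and 244, 239.8 and 207 TPM (0.54, limma adjusted p = 0.00859). Mvd, a decarboxylase of the same pathway, was at 31.1, 28.9 and 26.4, 34.01, 34.3 and 34.3 and 52.8, 54.98 and 49.9 TPM (0.55, limma adjusted p = 0.00745). In all 4 genes the 3 acids followed the order CDCA, CA, DCA with no library out of place, but CA against CDCA was past the threshold in Insig1 and Msmo1 and not in Hmgcs1 (0.27, limma adjusted p = 0.0789) or Mvd (0.24, 0.105). The list count was 8 without CDCA replicate 1, 2 without CDCA replicate 2, 9 without CA replicate 1, DCA replicate 1 or DCA replicate 2, 10 without CA replicate 3 and 17 without CDCA replicate 3, and 11 without a filter on low values. Without CDCA replicate 2, Hmgcs1 and Mvd lost their calls (limma adjusted p = 0.0685 and 0.0581).

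As members of the list moved together, their promoters were searched for the sterol regulatory element TCACCCCAC and for the CCAAT box, which is often found beside it, on both strands of the 250 bases before the start. The 250 bases are shown for Insig1 and Hmgcs1, with matches in capitals, from RefSeq on build GRCm38.p6. The Insig1 window is chr5:28071162-28071411 and the Hmgcs1 window chr13:119690101-119690350, both on the plus strand. The expression tables were made on another build, so these coordinates belong to the sequences alone.
Insig1: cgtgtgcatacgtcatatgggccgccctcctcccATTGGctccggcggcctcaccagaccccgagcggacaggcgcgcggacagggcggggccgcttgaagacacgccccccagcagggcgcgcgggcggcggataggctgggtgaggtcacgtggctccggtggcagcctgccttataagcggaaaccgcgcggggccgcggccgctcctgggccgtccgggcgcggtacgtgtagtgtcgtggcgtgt
Hmgcs1: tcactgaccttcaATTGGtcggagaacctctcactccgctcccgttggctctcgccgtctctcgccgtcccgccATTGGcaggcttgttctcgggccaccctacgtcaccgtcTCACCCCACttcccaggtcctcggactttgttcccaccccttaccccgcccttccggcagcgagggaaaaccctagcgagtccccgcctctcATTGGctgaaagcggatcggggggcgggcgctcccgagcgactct
The capitals ATTGG are the CCAAT box on the other strand, and TCACCCCAC in Hmgcs1 is the sterol element. Of the 17 cholesterol genes with a window, 1 held TCACCCCAC (Hmgcs1) and 15, the exporter Abcg8 among them, held CCAAT. Of all 32851 windows 0.496% and 33.8% did. The list was counted by gene and the background by window, so these shares differ in unit. A match describes letters only and shows no binding.

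Genes of stem and dividing cells were lower with CA and DCA as a pool, with the larger difference in DCA. Of 17 stem cell markers 12 were lower, against 4.41% of all genes, and 0 higher. The median was -0.75, with -0.33 for CA and -1.15 for DCA against CDCA. None of the 17 passed in CA against CDCA (background 0.259% lower), and 14 were lower in DCA against CDCA (background 11.6%). Of the 17, 3 were lower with an unadjusted p for agreement under 0.05 (background 1.08%) and 2 without overlap (background 2.64%). All 17 lay below CDCA in both acids, against 4671 of all 11952 genes. Olfm4, a stem cell marker, was at 274, 245 and 77.5 TPM in CDCA, 87.8, 159 and 83.8 in CA, 16.1, 14.2 and 17.7 in DCA and 161, 346 and 446 in DMSO. CA overlapped CDCA, and DCA lay below all of them. The 12-hydroxyl difference was -2.04 (limma adjusted p = 0.0248), made up of -0.71 for CA (limma adjusted p = 0.449) and -3.36 for DCA (0.00439). Of 25 proliferation genes 23 were lower, against 4.41% of all genes (median -0.55, with -0.15 for CA and -0.95 for DCA). In CA against CDCA 0 of the 25 were lower (background 0.259%), and in DCA against CDCA 25 were (background 11.6%). Mki67, which marks dividing cells, was at 32.3, 28.5 and 21.6, 24.1, 24.99 and 23.9 and 15.96, 15.4 and 15.6 TPM in CDCA, CA and DCA. CA lay inside the CDCA range and DCA below it (-0.45, limma adjusted p = 0.0383). Its call was lost without CDCA replicate 1 or 2, CA replicate 1 or 3 or any 1 DCA library, and that of Olfm4 without CDCA replicate 1 or 2, CA replicate 1 or 3 or DCA replicate 1 or 2. Of the 25 proliferation genes 0 were lower with an unadjusted p for agreement under 0.05, near the background of 1.08%. Without CDCA replicate 1, CDCA replicate 2 and CDCA replicate 3 the stem cell counts were 0, 0 and 14 and the proliferation counts 1, 0 and 25. Other single libraries that moved a count by more than 1.5 times were, for stem cell markers, CA replicates 1 and 3 (3 and 2) and DCA replicates 1 and 2 (2 and 2), and, for proliferation genes, DCA replicates 1 and 2 (14 and 9). Without a filter on low values the counts were 3 and 10.

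Some Paneth cell products were also lower. Paneth cells secrete antimicrobial defensins at the crypt base. Of 17 Paneth cell markers 4 were lower with CA and DCA (background 4.41%). Of the 17, 5 had the 6 libraries below the 3 CDCA libraries (background 2.64%), and 5 had an unadjusted p for agreement under 0.05 (background 1.08%). The median was -0.54, with -0.18 for CA and -0.69 for DCA. The defensin Defa22 was at 19.9, 15.2 and 15.9 TPM in CDCA, 9.01, 7.51 and 9.19 in CA, 7.70, 11.1 and 6.86 in DCA and 8.03, 5.10 and 15.3 in DMSO. CA and DCA did not overlap CDCA, and DMSO replicates 1 and 2 lay with CA and DCA while replicate 3 lay near CDCA. The difference was -0.92 (CI -1.45 to -0.38, limma adjusted p = 0.0354), and DCA and CA differed by -0.02 (CI -0.64 to 0.59). Defa3 was at 3926, 2575 and 2116, 1599, 1972 and 1815 and 1583, 1438 and 1456 TPM in the 3 acids (-0.76, limma adjusted p = 0.0396), and Defa23 and Pla2g2a, a secreted phospholipase, were the other 2 calls (-0.84 and -1.40, limma adjusted p = 0.0484 and 0.0385). Defensin genes are near-identical copies, so how reads were divided among them is uncertain. Lyz1, lysozyme, differed by -0.28 (limma adjusted p = 0.307). The count of 4 became 0 without any 1 of CA replicates 1 and 3, CDCA replicates 1 and 2 and the 3 DCA libraries, 2 without CA replicate 2, 6 without CDCA replicate 3, 9 without DMSO replicate 3, 8 with median-ratio scaling, 7 with mitochondrial and ribosomal rows removed, 10 with only the 9 acid libraries, and 0 without a filter.

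Other genes that were past the threshold in the pool did not follow the 12-hydroxyl: CDCA and DCA lay together in them and CA apart. Adjusted over its own genes, CA against CDCA called Gcg, Cyp24a1, Lgals2 and Zg16, and all 4 had this pattern. Gcg, the proglucagon gene of enteroendocrine cells, was at 139, 173 and 156 TPM in CDCA, 337, 265 and 289 in CA, 144, 146 and 139 in DCA and 343, 276 and 317 in DMSO. CA lay with the solvent, and CDCA and DCA lay below both without overlap. CA differed from CDCA by 0.93 (limma adjusted p = 0.000875) and DCA from CDCA by -0.12 (CI -0.35 to 0.11, limma adjusted p = 0.553). Cyp24a1, which breaks down active vitamin D, was listed at 0, 0 and 0 TPM in CA and 0, 0 and 0.668 TPM in DMSO, against 5.59, 5.05 and 6.08 TPM in CDCA and 5.83, 5.27 and 6.60 TPM in DCA. The acids split cleanly, with no fold given because CA was listed at 0. CA against CDCA and DCA against CA were past the threshold (limma adjusted p = 4.49e-05 and 4.49e-05) and DCA against CDCA was not (0.868). Lgals2, a galectin, was at 1618, 1524 and 1464 TPM in CDCA, 2179, 2080.3 and 2055 in CA, 1597, 1581 and 1633 in DCA and 2035, 1994 and 2155 in DMSO. Zg16, a goblet cell lectin, was at 37.3, 47.3 and 55.9, 171, 131 and 137, 55.9, 57.5 and 57.4 and 86.9, 90.99 and 51.2 TPM in the same order. CA was high in both genes, level with the solvent in Lgals2 and above it in Zg16. DCA and CDCA differed by 0.06 (CI -0.05 to 0.18) in Lgals2 and 0.29 (CI -0.13 to 0.72) in Zg16. Cyp24a1 nevertheless counted in the 12-hydroxyl difference, as a lower gene, although DCA lay with CDCA. So did Gcg, Lgals2 and Zg16 as higher genes, at 0.40, 0.26 and 0.96 (limma adjusted p = 0.0218, 0.0107 and 0.0114). Without CDCA replicate 2 each of these 3 had a limma adjusted p of 0.0811, and Gcg and Zg16 were also lost without CDCA replicate 1 (0.137 and 0.0761) and Gcg without DCA replicate 1 or 2 (0.0503 and 0.0533).

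**Figure D4:**
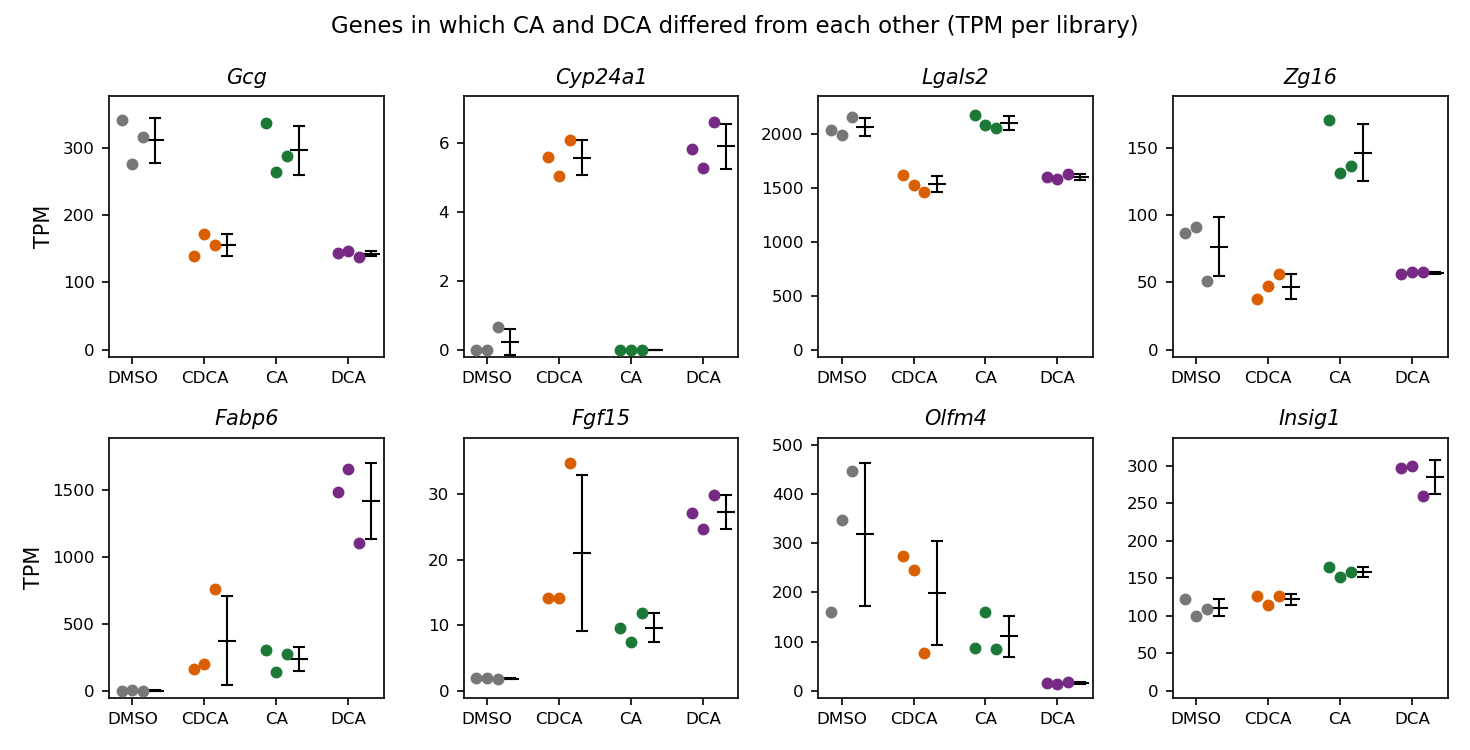
Abundance in TPM (y axis, linear, from 0) of 8 genes in which CA and DCA differed from each other, by treatment (x axis). Points are libraries, horizontal bars the group means and vertical bars 1 SD (n = 3). In Gcg, Cyp24a1, Lgals2 and Zg16 DCA lies with CDCA and CA lies apart, while in Fabp6, Olfm4 and Insig1 DCA lies beyond CDCA and CA.

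The hormone and mucus lists held more such genes. Of 22 enteroendocrine markers 5 were higher in CA than in CDCA (background 0.979%), or 1, Gcg, when adjusted over that pair's genes alone. In DCA against CDCA 2 were higher and 6 lower (backgrounds 10.8% and 11.6%). The pooled difference held 3 higher (Gcg, Sst and Ghrl) and 1 lower (Neurog3), against 6.92% and 4.41% of all genes. The 1 lower gene is near that share. Gip was at 202, 209 and 172 TPM in CDCA, 403, 299.6 and 375 in CA and 203, 169 and 171 in DCA, and Sst, somatostatin, at 156, 168 and 174, 262, 244 and 252 and 177, 157 and 148 TPM. CDCA and DCA overlapped in both genes, and CA lay above them by 0.88 and 0.61 over CDCA (limma adjusted p = 0.00249 and 0.00288 over the 3 pairs, and 0.0538 and 0.0608 over that pair's genes alone). The pooled difference of Gip was 0.39 (limma adjusted p = 0.0504), and passed without CA replicate 2, DMSO replicate 2 or DMSO replicate 3 (0.0268, 0.0442 and 0.0361). The pooled difference of Sst, at 0.28 (limma adjusted p = 0.0490), was lost without any 1 of the 9 acid libraries other than CDCA replicate 3. In Ghrl, ghrelin, both acids lay above CDCA, at 300.0, 282 and 266 TPM in CA and 269, 245 and 226 TPM in DCA against 199, 199 and 217 in CDCA and 197, 192 and 198 in DMSO. No CA or DCA library overlapped CDCA or the solvent (0.36, CI 0.22 to 0.51, limma adjusted p = 0.0116, 0.0759 and 0.0966 without CDCA replicates 1 and 2). Of 15 goblet cell markers 9 were higher in CA than in CDCA (background 0.979%), or 1, Zg16, when adjusted over that pair's genes alone. In DCA against CDCA 0 were higher and 2 lower, against 10.8% and 11.6% of all genes. The pooled difference held 2, Zg16 and Agr2, both higher (background 6.92%). The median was 0.18, with 0.55 for CA and -0.12 for DCA. Muc2, the main gel-forming mucin, was at 27.1, 24.3 and 30.3 TPM in CDCA, 50.02, 37.3 and 47.5 in CA and 29.1, 26.9 and 24.8 in DCA. DCA overlapped CDCA and CA lay above both (0.34, limma adjusted p = 0.0717 for the pool). The pooled difference of Muc2 passed without CDCA replicate 3 (0.42, limma adjusted p = 0.0367) or CA replicate 2 (0.40, 0.0346). The pooled goblet count was 0 without CDCA replicate 1 or 2 and 3 without CDCA replicate 3.

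Of the bile acid genes driven by FXR, Fabp6, Fgf15, Slc51a and Slc51b lay above the solvent in all 3 acids without overlap, and CA overlapped CDCA or, in Fgf15, lay below it. Of 12 tested genes of bile acid handling 4 were higher in the pool (background 6.92%) and 0 lower, with a median of 0.54 (0.15 for CA and 0.76 for DCA). In DCA against CDCA 9 were higher (background 10.8%), and in CA against CDCA 1, Fgf15, was lower (background 0.259%). Fabp6, which binds bile acids inside enterocytes, stood at 164, 197 and 755 TPM in CDCA, 306, 138 and 276 in CA, 1481, 1653 and 1100.0 in DCA and 1.30, 2.31 and 0.971 in DMSO. CA overlapped CDCA replicates 1 and 2, CDCA replicate 3 lay above CA, and DCA lay above all. CA differed from CDCA by -0.36 with a wide interval of -1.59 to 0.88 (limma adjusted p = 0.755), and the pooled difference was 0.95 (0.226). Fgf15, the enterocyte hormone that signals to the liver, was at 14.1, 14.1 and 34.7 TPM in CDCA, 9.61, 7.41 and 11.9 in CA and 27.1, 24.7 and 29.9 in DCA. CA lay below both acids, which overlapped through CDCA replicate 3. CA minus CDCA was -0.94 and DCA minus CA 1.43 (limma adjusted p = 0.0404 and 0.00639), and the pooled difference of -0.23 (limma adjusted p = 0.565) turned to 0.18 without CDCA replicate 3. The exporter subunit Slc51a was at 9.09, 15.00 and 38.8 TPM in CDCA, 31.04, 18.6 and 27.97 in CA and 57.9, 56.4 and 44.04 in DCA, again with CDCA replicate 3 above every CA library. Slc51a and its partner Slc51b had pooled differences of 1.01 and 0.71 (limma adjusted p = 0.114 and 0.153). Nr1h4, the FXR gene itself, was at 0.52 (CI 0.11 to 0.93, limma adjusted p = 0.0922). Without CDCA replicate 3 the pooled differences of Fabp6, Slc51a, Slc51b and Nr1h4 were 1.64, 1.56, 1.17 and 0.77, all past the threshold (limma adjusted p = 0.00484, 0.00393, 0.00302 and 0.00624), and 9 of the 12 genes were called. Without CDCA replicate 1 or 2, 0 were called, and without CA replicate 1 or 3, any 1 DCA library or a filter on low values, 2.

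Of 16 genes of Reg lectins and mucosal defence 6 were higher (background 6.92%) and 0 lower (Reg1, Reg3a, Lgals2, Lgals4, Pigr and Dmbt1). Reg3a, an antibacterial lectin with close relatives, was at 1.87, 5.32 and 9.68 TPM in CDCA, 18.1, 9.84 and 10.3 in CA, 25.7, 28.2 and 17.2 in DCA and 18.9, 7.06 and 11.4 in DMSO. CDCA was the lowest of the acids, CA lay just above it and DCA overlapped CA, while DMSO overlapped CDCA (1.63, limma adjusted p = 0.0316). The call was lost without CDCA replicate 1 or 2 (limma adjusted p = 0.141 and 0.134), CA replicate 1 or 3 (0.0681 and 0.0593) or DCA replicate 1 or 2 (0.0698 and 0.0727). The count of 6 was 1 without CDCA replicate 1, 0 without CDCA replicate 2 and 9 without CDCA replicate 3. Against a background of 6.92% higher and 4.41% lower, counts of higher and lower genes were 12 and 0 of 22 for glycolysis and hypoxia, 3 and 1 of 7 for vitamin D receptor targets, 5 and 0 of 18 for fatty acid synthesis, 5 and 0 of 18 for NRF2 antioxidant genes and 6 and 1 of 17 for ion and fluid transport. They were 2 and 1 of 19 for tight junction and keratin genes, 1 and 3 of 11 for fetal-like and YAP response genes, 1 and 0 of 15 for interferon and antigen presentation, 0 and 1 of 15 for secretory fate and Notch genes and 0 and 5 of 26 for stress response genes. The shares of tight junction, interferon and secretory fate genes lie near that background. The lower vitamin D gene was Cyp24a1, in which CA alone stood apart from CDCA. Without CDCA replicate 1 these 10 lists held 2 higher genes, both of fatty acid synthesis, and 1 lower, Cyp24a1, and without CDCA replicate 2 they held 1 higher and 1 lower. None of 9 tuft cell markers, 1 mesenchymal, 3 immune and 3 endothelial, glial and neuronal markers was called, while 2 of the 3 immune markers were higher without overlap (background 3.57%). Of the immune markers 1 was called higher without CDCA replicate 3, with median-ratio scaling, with mitochondrial and ribosomal rows removed, with the 9 acid libraries alone and without trend and robust moderation.

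Single libraries decided how many genes were called. The 12-hydroxyl count was 30 without CDCA replicate 1, 16 without CDCA replicate 2 and 2495 without CDCA replicate 3. It was 546 and 577 without CA replicates 1 and 3, and 437, 352 and 900 without DCA replicates 1, 2 and 3. Leaving out CA replicate 2 or a DMSO library gave 1256 to 1819. Of 66 genes examined singly, 58 were called with all libraries, and 8 kept the call without each library in turn. They were Prelp, Igfbp2, Insig1, Msmo1, Gamt, Gstm1, its paralog Gstm3 and Cyp24a1, a set seen only after their values were known. Cyp24a1 is in this set through CA alone, with -2.71 for CA and 0.07 for DCA against CDCA. With neither CDCA replicate 3 nor DMSO replicate 1 in the fit, 336 genes (2.82%) passed the test of agreement, 278 (2.34%) higher and 58 (0.488%) lower, among them 17 of 25 enterocyte markers, 18 of 31 xenobiotic genes and 3 of 25 cholesterol genes. Reg1 (limma adjusted p = 0.00249), Dmbt1 (0.000716), Prelp (0.0122) and Insig1 (0.0345) were among the 336. Of their groups, these 2 libraries lay furthest towards CA and DCA on the line above, at 0.705 and 0.354. Leaving them out tends by construction to widen the gap to CDCA and to narrow the spread. The counts and p-values of this fit are therefore descriptions only. Without CDCA replicate 3 alone, the 12-hydroxyl difference of Dmbt1 was 1.22 and that of Prelp -0.98, against 1.04 and -1.13 with all libraries.

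**Figure D5:**
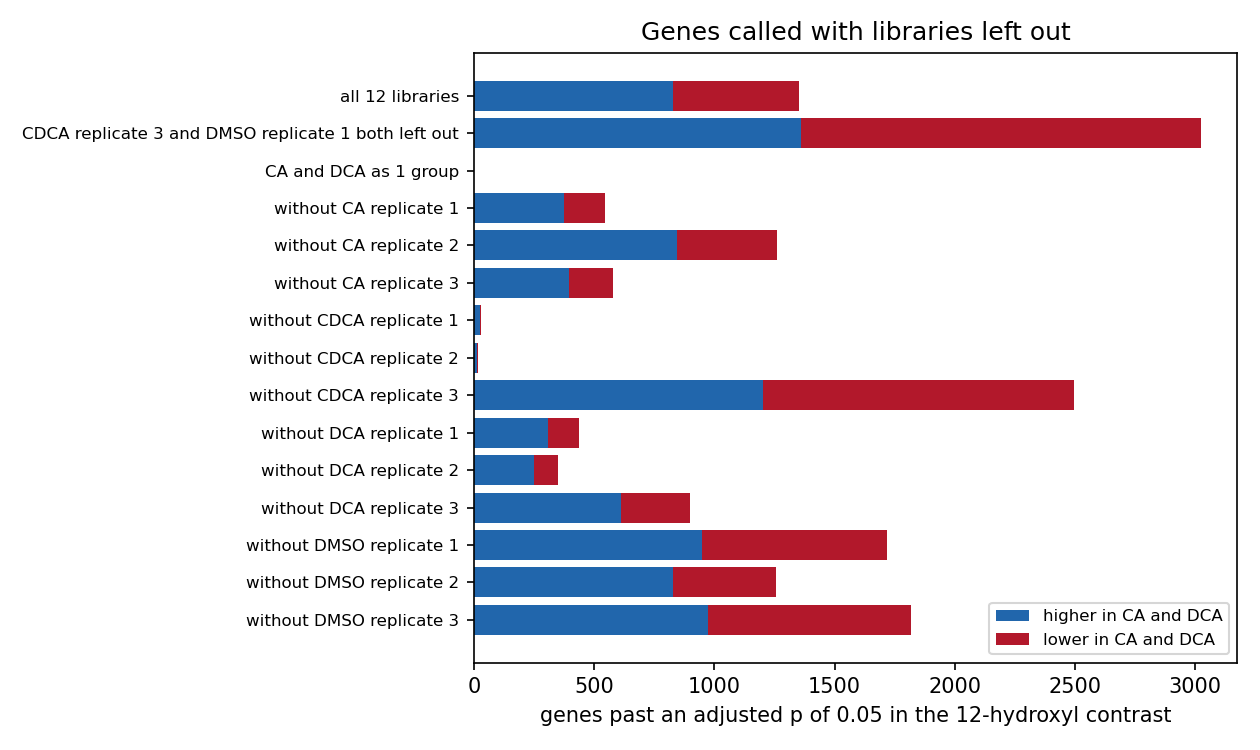
Number of genes past an adjusted p of 0.05 for the 12-hydroxyl difference (x axis), higher (blue) and lower (red) with CA and DCA, with all 12 libraries, with the libraries named on the y axis left out, and with CA and DCA fitted as 1 group. The count runs from 16 without CDCA replicate 2 to 3024 without CDCA replicate 3 and DMSO replicate 1, and is 2 with CA and DCA as 1 group.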

How the data were processed

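RNA of 12 organoid libraries was measured. For each library the authors deposited TPM by gene symbol, a unit inferred from the values. Per the labels' protocols, poly(A) RNA was selected and second strands were marked with dUTP, and the submitters' processing notes name Salmon 1.8.0 and build GRCm39. For annotation and strand setting the sources used here give nothing. TPM values are shares of a total and keep no depth. All 12 libraries held 0 for 13548 rows, and 116 tested rows equalled another row. Gene coordinates are not given, since the reference used here is of another build.

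Values were taken as log2(TPM + 1) for rows of at least 1 TPM in at least 3 libraries. The limma model (3.58.1, in R 4.3.3) had 4 group means over 12 libraries (trend and robust moderation, two-sided, 95% intervals), and the code was tested on simulated data. Groups came from the treatment labels. Gene lists (26 lists, 476 of 479 genes found) and alternatives are those of the design. Named genes were the 10 in each direction with the smallest p for agreement, the 8 largest calls of the 12-hydroxyl difference in each direction without overlap and with a mean log2 value of at least 1, a set of fixed genes and up to 4 members of a list. The text names part of these. The comparison, the genes and the lists were chosen with earlier results of these data known. No column of per-sample values was left unused. Of 66 named genes 52 had a RefSeq promoter window.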

Additional observations from a re-analysis of the deposited data

How the results depend on the processing

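No agreeing gene passed in limma with no filter, the stricter filter, either scaling, the other pseudocount, no trend or robust moderation or the 9 acid libraries alone. With neither CDCA replicate 3 nor DMSO replicate 1 fitted 336 did, but these 2 libraries lay furthest of their groups towards CA and DCA. Leaving out single libraries gave 0 to 8. The 12-hydroxyl difference held 464 genes without a filter on low values, 2146 with median-ratio scaling, 3024 with both libraries left out and 2 with CA and DCA as 1 group, and 16 to 2495 without single libraries. CA against CDCA held 91 without a filter, 227 with median-ratio scaling, 228 with mitochondrial and ribosomal rows removed, 256 with the 9 acid libraries alone, 1006 with both libraries left out, 4 adjusted over its own genes and 43 to 618 without single libraries. Without single libraries DCA against CDCA held 1291 to 3388 genes and DCA against CA 605 to 2173, and the latter held 2762 with both libraries left out. The mitochondrial difference ranged from -3.91 to -1.93. The causes were not tested beyond the construction of each alternative. Fgf15 reversed to 0.18 without CDCA replicate 3, alone or with DMSO replicate 1, and ranged from -0.44 to 0.18 without single libraries. Of 1451 values of single genes under the alternatives 1184 kept their direction and side of the threshold, 240 lost it, 25 gained it and 2 reversed.

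The labels number replicates 1 to 3 in every group, but correlations of same-numbered libraries ran from -0.153 to 0.109 and 3 of 9 libraries correlated best with their own number, so the numbers were not taken as pairs. With the replicate block the 12-hydroxyl difference held 879 genes and no agreeing gene passed, and 0 of the 17 Paneth cell markers were called in place of 4. Depth is unknown, so counting error could not be set beside the spread, and low values such as those of Prelp rest on few reads to an unknown degree. Leaving a library out assumes that the remaining 2 vary like the other groups.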
